A study of Mus musculus with 143 samples.

Results

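The Toll-like receptors, the co-receptor Cd14 and the adaptor Myd88 were followed through single microglia of the developing mouse cerebellum. The 10 genes were taken by name: the receptors Tlr1, Tlr2, Tlr3, Tlr4, Tlr6, Tlr7, Tlr9 and Tlr13, with Cd14 and Myd88, out of 23337 gene rows, and none of them was without a read over the 143 cells. The cells came from pooled wild type C57BL/6N males at postnatal day 7 and were sorted singly into wells by surface protein, as live CD45-low, CD11b+, Gpnmb+ and Clec7a+ cells. Libraries were made with Smart-seq2, which reads whole transcripts and carries no molecular identifiers. All cells form 1 group on 2 plates, with 95 cells on plate 1 and 48 on plate 2. None can be traced to an animal, so cells are not counted as replicates. No other microglial population, stimulated sample or tissue is compared here, and the levels are described, not tested. The age label reads P7, while the name of the pooled library holds the word adult.

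Toll-like receptors are membrane proteins that recognise microbial products and released nucleic acids. Those at the cell surface bind lipids and lipoproteins of bacterial walls, and those in endosomes bind nucleic acids and reach the endosome with the escort protein Unc93b1. Nearly all signal through Myd88, Tlr3 signals through Ticam1 (TRIF), and Tlr4 uses both routes; Cd14 hands lipopolysaccharide to Tlr4 and its partner Ly96 (MD-2) and also assists other receptors. In the brain, microglia are the main carriers of this family.

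Total counts per cell, spike-ins included, ran from 271190 to 1226521 with a median of 760690, and genes detected from 1552 to 4955 with a median of 3255. Of 9 microglial markers, 8 were read in 50% of cells or more, as were 9.41% of all gene rows, and Tmem119 was lowest at 25.9%. Gpnmb, 1 of the sorted proteins, was read in 98.6% of cells and Clec7a in 83.2%. Among markers of other cells, all 5 of the B and T cell list, and Cd163, Lyve1, Ly6c2, Plac8, Flt3, Mog and Aqp4, were read in 0 of 143 cells, where the exact upper limit is 2.55%. Siglech (69.2%) and Mrc1 (55.9%), listed for dendritic cells and border macrophages but also known in microglia, were frequent. Other members of these lists were read in some cells, among them Pf4 (16.1%) and Cbr2 (10.5%) of border macrophages, Fn1 (15.4%) of monocytes, Slc1a3 (13.3%) of astrocytes, Mbp (13.3%) and Mag (10.5%) of oligodendrocytes and Flt1 (10.5%) of endothelium. Levels are given as CPM, a gene's counts per 1000000 gene counts of the cell, or as pooled CPM, the counts summed over cells against their summed totals.

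Tlr1 and Tlr6, a pair of neighbouring genes on the minus strand of chromosome 5 (GRCm38), share part of their sequence letter for letter, which bears on how reads can be assigned to either. Tlr1 lies at chr5:64924679-64933563 and Tlr6 at chr5:64952031-64960097. Their longest shared run in the coding sequence is 229 bases, in the GENCODE transcripts, at chr5:64925537-64925765 in Tlr1 and chr5:64953828-64954056 in Tlr6, each within 1 exon. It is shown because a read that falls within it fits both genes.
Shared run of Tlr1 and Tlr6: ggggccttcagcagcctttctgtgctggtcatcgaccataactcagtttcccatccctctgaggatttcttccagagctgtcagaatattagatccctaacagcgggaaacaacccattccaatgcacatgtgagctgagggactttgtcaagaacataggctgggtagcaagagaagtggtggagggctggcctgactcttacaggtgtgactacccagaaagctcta
Of all stretches of 50 bases in the coding sequence, 19.4% of those of Tlr1 occur also in Tlr6 and 19.2% of those of Tlr6 in Tlr1. The other receptor pairs among the 8 share 0 such stretches. The sources used here do not say how reads that fit both genes were counted, so the counts of Tlr1 and Tlr6 carry that uncertainty.

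Cd14 was by far the most widely read of the 10 genes, and the receptors formed a steep order behind it. Cd14, a GPI-anchored lipopolysaccharide-binding protein, had at least 1 count in all but 16 of the 143 cells, 88.8% (exact Clopper-Pearson 95% interval 82.5 to 93.5), with 88.4% on plate 1 and 89.6% on plate 2. Behind it stood Tlr7 at 67.8%, Tlr2 at 60.1%, Tlr13 at 50.3% and Tlr1 at 39.9%. Tlr6 (27.3%), Tlr4 (25.9%), Myd88 (21.0%) and Tlr9 (16.8%) followed, and Tlr3 was read in 8 cells (5.59%). Thus 4 of the 10 reached 50% of cells, as did 9.41% of all gene rows and 17.2% of the 12801 rows with any read. Of these neighbours in the order, only Cd14 over Tlr7 and Tlr9 over Tlr3 were set apart by intervals that do not overlap. The intervals cover counting error only: reads of 1 molecule are not independent, and a pool hides how animals differ.

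**Figure D1:**
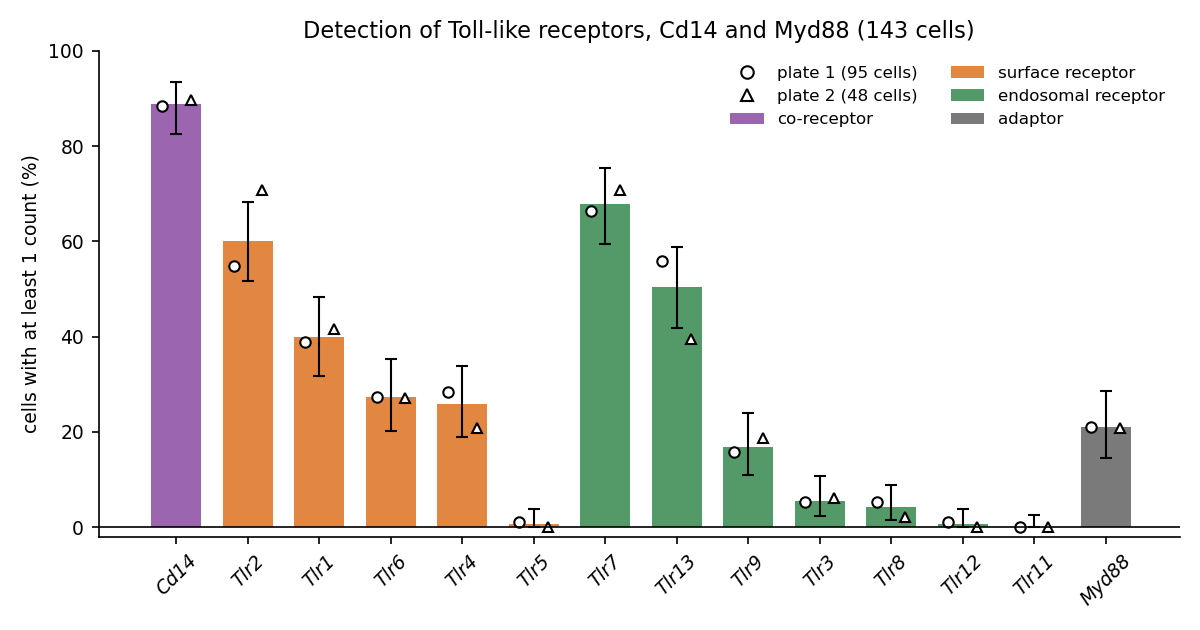
Share of the 143 cells with at least 1 count (percent, vertical axis) for each gene (horizontal axis), coloured by where the protein acts. Bars are all cells, black lines exact 95% intervals, circles plate 1 and triangles plate 2; Cd14 stands at 88.8%, Tlr7 leads the endosomal receptors at 67.8% and Tlr2 the surface receptors at 60.1%.

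Among the surface receptors, Tlr2 stood first. Tlr2 (chr3:83836272-83841767, minus strand) recognises bacterial lipoproteins as a dimer with Tlr1 or Tlr6. It was read in 86 cells (51.6 to 68.2%), 54.7% of those on plate 1 and 70.8% on plate 2. In cells with a read its level ran from 1.56 to 805 CPM with a median of 219. Its dimer partners were less frequent: Tlr1 was read in 57 cells (31.8 to 48.4%) at a median of 139.5 CPM, with a highest value of 698. Tlr6 was read in 39 cells (20.2 to 35.3%) at a median of 90.2 CPM and a highest of 349.

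Tlr4, the lipopolysaccharide receptor (chr4:66827584-66930284, plus strand), was read in 37 cells (18.9 to 33.9%). The cells with a read had a median of 173 CPM and a highest of 560 CPM. It was read in 28.4% of cells on plate 1 and 20.8% on plate 2. Tlr5, the flagellin receptor and not among the 10, had 2 counts in 1 cell.

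The endosomal receptors split into a frequent pair and rare others. Tlr7 (chrX:167304929-167330558, minus strand), a sensor of single-stranded RNA, was read in 97 cells (59.5 to 75.4%), 66.3% on plate 1 and 70.8% on plate 2. Cells with a read ran from 1.28 to 784 CPM, with quartiles of 33.7 and 228, and 14 of them held only 1 to 4 counts, more than for any other of the 10 genes. At a limit of 10 CPM its share was 57.3%. Tlr13 (chrX:106143204-106160493, plus strand), a receptor for bacterial ribosomal RNA that humans lack, was read in 72 cells (41.9 to 58.8%), and 0 of them held fewer than 5 counts. It was read in 55.8% of cells on plate 1 and 39.6% on plate 2, with a median of 214 CPM and a highest of 746 CPM in cells with a read.

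Tlr9 (chr9:106222598-106226883, plus strand), the sensor of CpG DNA, was read in 24 cells (11.06 to 23.9%), yet at a median of 188 CPM where it was read. Tlr3 (chr8:45395665-45411080, minus strand), the sensor of double-stranded RNA, was read in 8 cells with a median of 88.3 CPM and a highest of 152. Tlr8, the neighbour of Tlr7 on chromosome X, was read in 6 cells (4.2%), Tlr12 in 1 and Tlr11 in 0 of 143 cells (upper limit 2.55%). Of the 12 receptor rows in the table, those read in over 10% of cells are therefore 7, 4 of the surface and 3 of the endosome.

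Myd88 (chr9:119335934-119341411, minus strand), the cytosolic adaptor that joins the receptors to the Irak kinases, was read in 30 cells (14.6 to 28.6%), 21.1% on plate 1 and 20.8% on plate 2. In those 30 cells the median was 190.5 CPM, the quartiles were 141.97 and 245, and 1 cell held fewer than 5 counts. Its exons overlap those of Acaa1a, a peroxisomal thiolase gene on the other strand, and the sources used here do not say whether counting used strand. Acaa1a was read in 73 cells, 17 of which also held Myd88, against 15.3 from the shares of the genes alone.

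**Figure D2:**
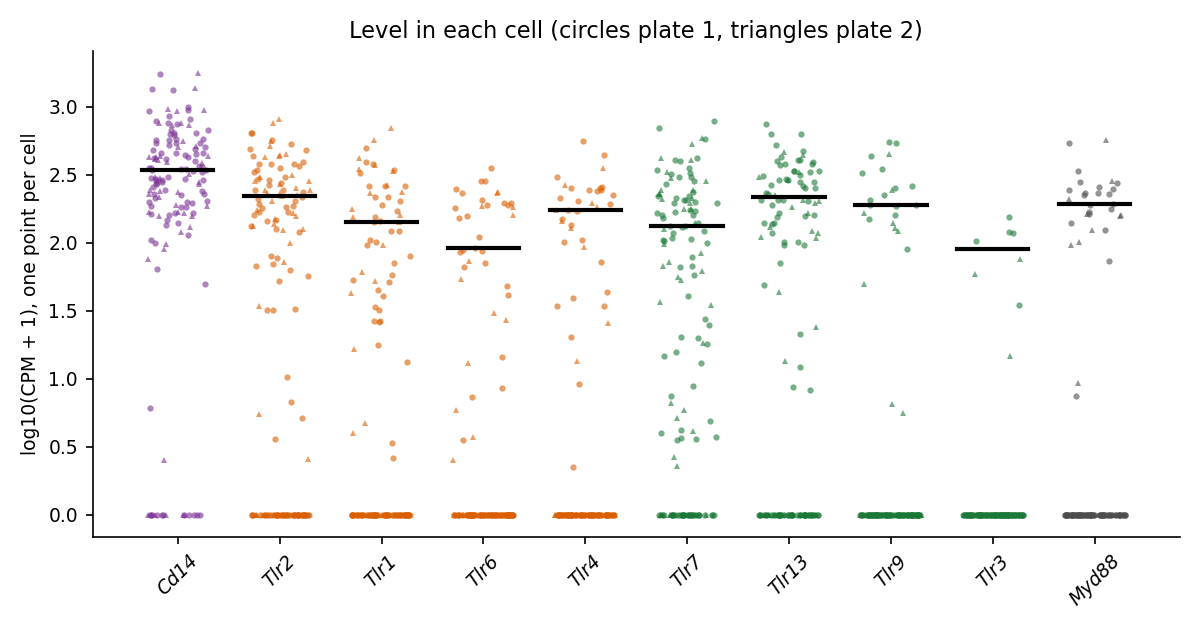
Level of each gene in each of the 143 cells as log10(CPM + 1) on the vertical axis, genes on the horizontal axis, with circles for plate 1 and triangles for plate 2. Black lines mark the median of the cells with a read, 341 CPM for Cd14, 219 for Tlr2 and 88.3 for Tlr3; points at 0 are cells with no read, and Tlr7 has the most cells between.

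Levels of different genes were compared per kilobase of exon, since long transcripts give more reads. On this scale Cd14 led at 219 pooled CPM per kb (220.1 on plate 1 and 218 on plate 2). It was higher than 98.6% of the 11518 genes with a read and an exon length, and 1.42 times the sum of all 8 receptors. Cd14 lies on the minus strand of chromosome 18 from 36725067 to 36726798. In CPM, it ranged from 0 to 1767 over all cells with a median of 296, and the 5 highest cells held 14% of its summed level.

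Tlr2 followed at 49.9 CPM per kb (44.1 on plate 1 and 62.4 on plate 2), then Tlr13 at 28.2 (33 and 17.8), Tlr7 at 27.9 (27.35 and 29) and Tlr1 at 20.0 (16.5 and 27.28). Myd88 stood at 17.7 (19.3 and 14.1), Tlr9 at 10.0 (11 and 7.93), Tlr6 at 9.21 (10.4 and 6.68), Tlr4 at 7.93 (9.1 and 5.46) and Tlr3 at 0.919 (1.096 and 0.541). Between neighbours in this order, the ranges of the plates overlap for Tlr13 and Tlr7, for Tlr1 and Myd88, for Tlr9 and Tlr6 and for Tlr6 and Tlr4. Those of Tlr7 and Tlr1 all but meet. The ranges lie apart for Cd14 and Tlr2, Tlr2 and Tlr13, Myd88 and Tlr9, and Tlr4 and Tlr3.

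Several members differed between the plates, which are told apart by the plate number in the labels. The labels do not say whether both were filled from the same animals, so plate and animals cannot be told apart. Of the 9 members read in at least 10% of cells, 4 differed 1.5-fold or more in pooled CPM + 1, against 27.5% of the 7789 genes with that detection. Tlr13 was at 142.2 pooled CPM on plate 1 and 76.7 on plate 2, Tlr4 at 50.6 and 30.3 and Tlr6 at 38.8 and 24.9, while Tlr1 was at 55.3 and 91.3. Cd14 (381 and 378) and Tlr7 (111.6 and 118.5) were close. Plate 1 had a median of 783811 total counts and 3200 genes detected per cell, and plate 2 had 695199 and 3311.5; the part of depth in these differences was not tested.

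The share of cells with a read depends on a gene's level, and against genes of like level some members were gathered in few cells. Each member was set beside the 200 genes nearest to it in pooled CPM, without regard to exon length. The part of exon length in these shares was not tested. Tlr9, at 34.9 pooled CPM, was read in 16.8% of cells where its neighbours had a median of 26.6%, and only 1% of them were read in fewer cells. Myd88, at 45.5 pooled CPM, was read in 21.0% against 32.9%, with 2.5% of neighbours below it. Tlr13 was read in 50.3% against 61.5%, with 9.5% below.

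The other members lay nearer to the middle of their neighbours. Tlr7 (67.8% against 61.9%) and Tlr6 (27.3% against 25.9%) were read in more cells than the median neighbour, Tlr3 equalled it at 5.59%, and Cd14 (88.8% against 91.6%), Tlr2 (60.1% against 69.2%), Tlr1 (39.9% against 43.4%) and Tlr4 (25.9% against 31.5%) in fewer. The 5 highest cells held 43% of the summed CPM of Tlr9, 32.5% of that of Myd88 and 84.2% of that of Tlr3, against 16.3% for Tlr2 and 17.3% for Tlr13. Without those 5 cells the pooled level of Tlr9 was 21.1 CPM and that of Tlr3 0.673 CPM.

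**Figure D3:**
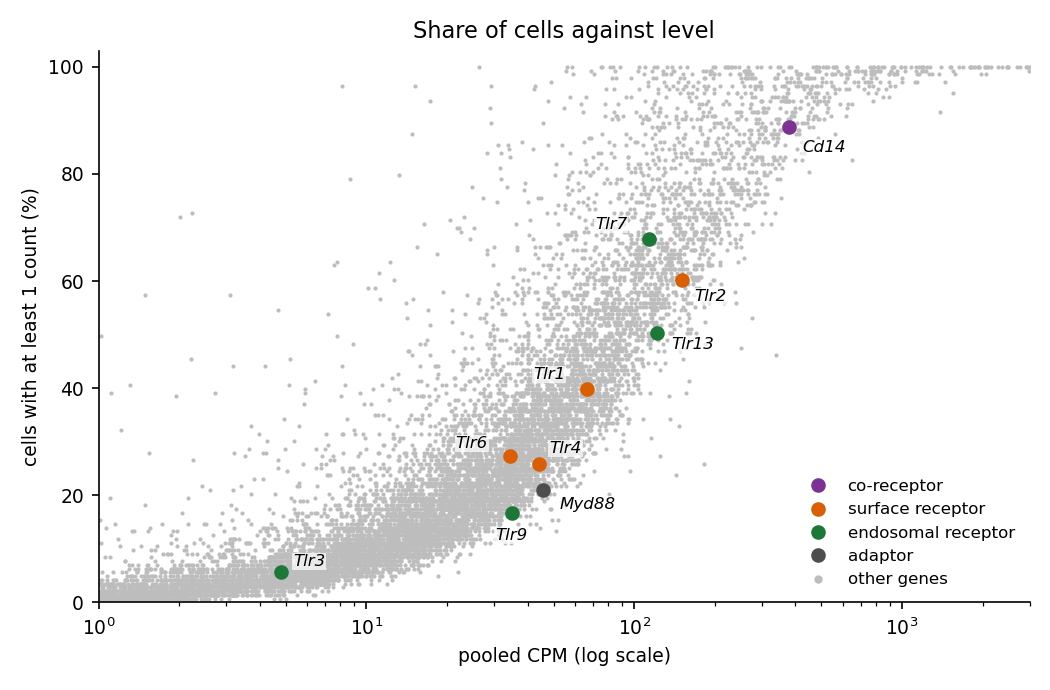
Share of cells with at least 1 count (percent, vertical axis) against pooled CPM (horizontal axis, log scale) for every gene at 1 CPM or more (grey) and the 10 members (coloured by place). Tlr9 (16.8%) and Myd88 (21.0%) lie at the lower edge of the cloud, Tlr7 (67.8%) in its middle.

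Surface and endosomal receptors were present side by side in most cells. At least 1 of Tlr1, Tlr2, Tlr4 and Tlr6 was read in 86.7% of cells (80.03 to 91.8), and at least 1 of Tlr3, Tlr7, Tlr9 and Tlr13 in 88.1% (81.6 to 92.9). Both places were represented in 78.3% of cells, the surface alone in 12 (8.39%), the endosome alone in 14 (9.79%) and neither in 5 (3.50%). With shares this high, most cells would hold both places even if the 2 were detected independently. The intervals of the 2 places overlap over most of their length.

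In level, the surface receptors summed to 87.02 and the endosomal ones to 67.02 pooled CPM per kb, a ratio of endosomal to surface of 0.770. The ratio was 0.905 on plate 1 and 0.543 on plate 2. Tlr2 made up 57.4% of the surface sum, and Tlr13 (42.0%) and Tlr7 (41.6%) together most of the endosomal sum. Cell by cell, the surface sum was the higher in 74 cells and the endosomal in 64. The order of these counts turned between plates, with the surface higher in 43 and the endosome in 48 cells of plate 1, and in 31 and 16 of plate 2.

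No cell held all 8 receptors. The number read per cell had a median of 3, quartiles of 2 and 4 and a highest value of 6, which 2 cells reached. There were 15 cells with 1 receptor, 34 with 2, 38 with 3, 34 with 4 and 15 with 5. The most frequent combination by place was 1 surface with 1 endosomal receptor (24 cells), followed by 2 with 1 (22 cells) and 2 with 2 (21 cells).

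The number per cell moved with how many genes were detected. The mean was 2.46 receptors in the 72 cells at or below their plate's median number of genes and 3.42 in the 71 cells above it. The variance of the number over all cells was 1.75, where detection independent between the receptors would give 1.53. It was 1.498 against 1.39 in the cells with fewer genes and 1.54 against 1.58 in those with more. Of the 10 genes Tlr13 differed most between these cells, read in 33.3% of the cells with fewer genes and 67.6% of those with more, whereas Tlr7 was read in 66.7% and 69.01%.

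**Figure D4:**
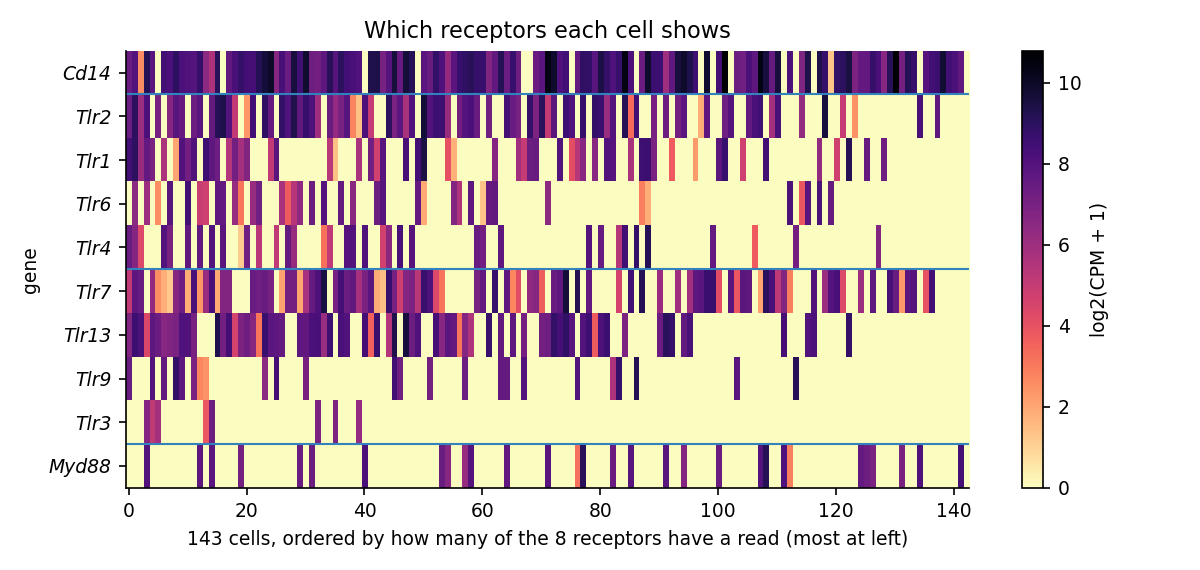
Level as log2(CPM + 1) (colour) of the 10 genes (rows) in the 143 cells (columns, ordered by the number of the 8 receptors with a read). Blue lines separate Cd14, surface receptors, endosomal receptors and Myd88; cells at the left hold up to 6 receptors, the last 5 hold none, and Cd14 is read in 88.8% of cells along the row.

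Cd14 and each receptor were read together about as often as their shares give. Cd14 and at least 1 of the 8 receptors were read together in 86.01% of cells, Cd14 without any of them in 4 cells and a receptor without Cd14 in 15 cells. The number of receptors had a mean of 2.97 in the cells with Cd14 and 2.69 in the 16 without, whose medians of genes detected were 3334 and 2856.5. Co-detection was measured with phi, the correlation of 2 yes-or-no detections over cells. It is 0 when the joint count is what the 2 shares give. As only 16 cells lacked Cd14, its phi with a rarely read gene such as Tlr3 cannot rise far above 0. A small positive value there cannot tell a weak relation from a strong one.

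For Cd14 with the other 9 members phi ran from -0.04 to 0.11 with a median of 0.02. Within plates the values spread more and some changed sign: Tlr9 had -0.11 on plate 1 and 0.16 on plate 2, Tlr3 0.09 and -0.19, Tlr2 0.07 and -0.07, and Tlr7 0.09 and -0.07. Over 7243 genes read in 10 to 90% of cells, the median phi with Cd14 was 0.04, with 5th and 95th percentiles of -0.10 and 0.17. Phi was 0.1 or more for 1 of the 9 members, Tlr1, against 22% of those genes. Among the 9, Tlr3 lies outside the range of detection of those genes. Tlr1 was read in 41.7% of the cells with Cd14 and 25% of those without, and its phi was 0.09 on plate 1 and 0.15 on plate 2.

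Cd14 met each of its partners in lipopolysaccharide sensing about as often as their shares give. Tlr4 was read in 25.2% of cells with Cd14 and 31.3% of those without, giving 32 joint cells against 32.9 from the shares. Ly96 was read in 25 cells (17.5%), 22 of them with Cd14, where the shares give 22.2. Cd14, Tlr4 and Ly96 were all read in 10 cells (6.99%, interval 3.40 to 12.5), against 5.74 (4.02%) from the shares, which lies within that interval. They were 5 cells on each plate, and phi of Tlr4 with Ly96 was 0.07 on plate 1 and 0.60 on plate 2. With Myd88 added 2 cells remained, against 1.21 from the shares, and with Ticam2, the bridging adaptor of the other Tlr4 route, 0 against 1.57.

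Between receptors, most pairs were likewise close to the product of their shares. Over the 45 pairs of the 10 members, phi ran from -0.19 to 0.22 with a median of 0.02; 25 were above 0, and 21 had the same sign on both plates, 12 above and 9 below 0. Of the 36 pairs of members read in 10 to 90% of cells, 1 had a phi of 0.2 or more, beside 2.8% of all pairs of genes with that detection, whose median phi was 0.03. The 2 genes of a pair are read in the same libraries, whose depth and number of genes differ between cells, and with 143 cells a weak phi is no finding.

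The pair past that limit was Tlr2 and Tlr13. They were read together in 51 cells, against 43.3 from the shares, with a phi of 0.22 over all cells, 0.17 on plate 1 and 0.43 on plate 2. The mean within the groups of cells with fewer and more genes on each plate was 0.26. Tlr13 was read in 59.3% of the cells with Tlr2. The lowest pair was Tlr6 with Tlr9, read together in 2 cells against 6.55 from the shares (phi -0.27 on plate 1 and -0.05 on plate 2).

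The dimer partners of Tlr2 were read with it about as often as the shares give, or slightly less often. Tlr1 and Tlr2 were read together in 31 cells, against 34.3 from the shares (phi -0.10), and Tlr2 and Tlr6 in 22 against 23.5 (phi -0.05). Over all cells both values lie above -0.11, the 5th percentile over all pairs of genes read in 10 to 90% of cells. For Tlr1 with Tlr2, phi was -0.05 on plate 1 and -0.20 on plate 2. Its mean within the groups of cells with fewer and more genes on each plate was -0.13. For Tlr2 with Tlr6 the same values were -0.06, -0.02 and -0.08. Tlr2 was read with Tlr1 or Tlr6 in 48 cells and without either in 38, and Tlr1 or Tlr6 without Tlr2 in 32. Tlr1 and Tlr6, the genes with the shared run shown above, were read together in 16 cells against 15.5, with a phi of 0.09 on plate 1 and -0.13 on plate 2.

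Tlr7 and Tlr13, the leading endosomal pair, were read together in 46 cells against 48.8 (phi -0.09), and Tlr2, Tlr7 and Tlr13 in 33 against 29.4. Tlr7 and Tlr9, which both travel with Unc93b1, were read together in 17 cells against 16.3. Tlr3 was read with Tlr1 in 6 of its 8 cells, against 3.19 from the shares.

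Most cells with a receptor had no read of Myd88. At least 1 receptor was read with Myd88 in 29 cells (20.3%) and without it in 76.2% of cells. Tlr7 and Myd88 were together in 17 cells against 20.3 (phi -0.12 on each plate), Tlr4 and Myd88 in 4 against 7.76 (phi -0.21 on plate 1 and -0.01 on plate 2), and Tlr2 and Myd88 in 19 against 18.04. A cell without a read may still hold the transcript, since single-cell libraries miss low ones.

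**Figure D5:**
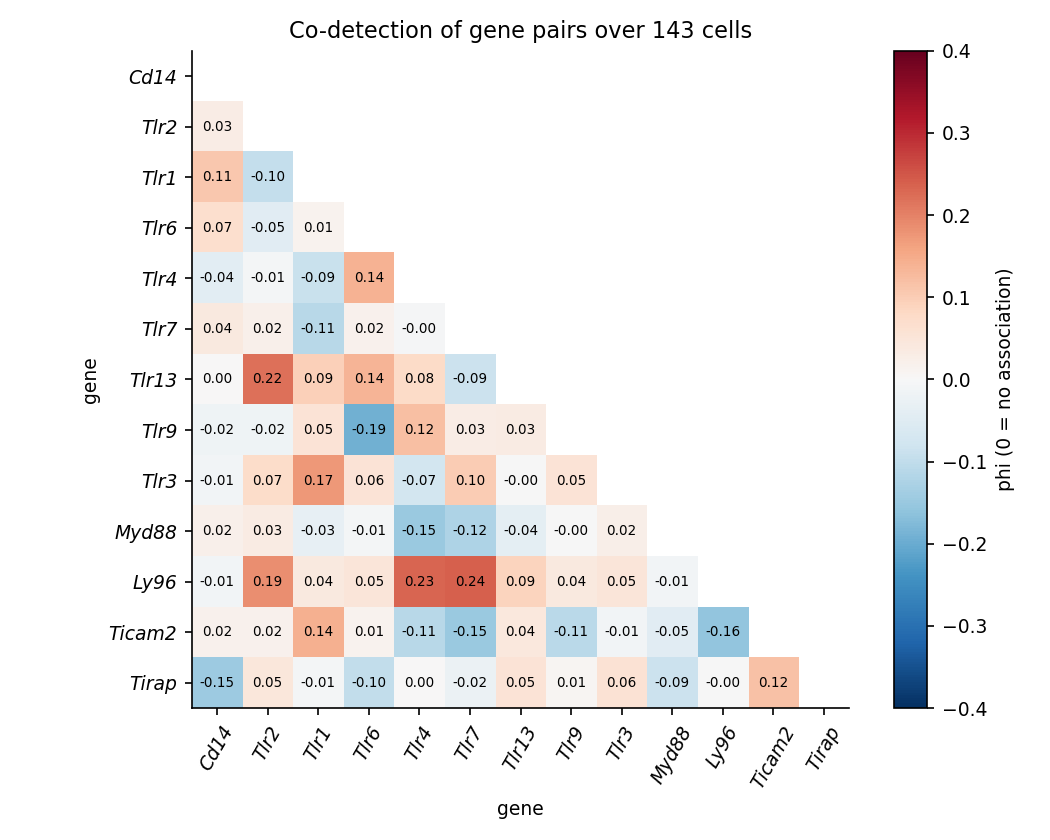
Phi of each pair of the 10 members and of 3 accessory genes (Ly96, Ticam2, Tirap) over 143 cells, with both axes listing genes and colour giving phi from -0.4 (blue) to 0.4 (red). Most squares lie near 0; Tlr2 with Tlr13 (0.22), Tlr4 with Ly96 (0.23) and Tlr7 with Ly96 (0.24) are the highest.

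The rest of the pathway was described from lists whose members were chosen by known role. Of 5 adaptors, 0 were read in 50% of cells, a mark that 9.41% of all gene rows reached. Ticam2 was read in 27.3%, Myd88 in 21.0%, Tirap, which brings Myd88 to the membrane, in 16.1%, Ticam1 in 6.99% and Sarm1 in 3.50%. At least 1 of Myd88, Tirap, Ticam1 and Ticam2 was read in 79 cells (55.2%), Myd88 with Tirap in 3 and Ticam1 with Ticam2 in 5. Tlr3 and its adaptor Ticam1 were read together in 0 cells, where their shares give 0.559.

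Escorts of the receptors ranged widely. Of 7 chaperone and trafficking genes, 3 were read in 50% of cells or more, as were 9.41% of all gene rows, and the median was 41.3%. Unc93b1 was read in 98.6% of cells at 383 CPM per kb, higher than any member, so 96 of the 97 cells with Tlr7, 71 of the 72 with Tlr13 and all 24 with Tlr9 had it. The chaperone Hsp90b1 was also read in 98.6%, its co-chaperone Cnpy3 in 41.3% and the adaptor subunit Ap3b1 in 59.4%. Hgs (33.6%), Cnpy4 (31.5%) and Slc15a4 (25.9%) were less frequent. Of the proteases that can trim endosomal receptors, Ctsb, Ctsl, Ctss and Lgmn were read in all 143 cells, Furin in 53.1% and Ctsk in 0. Among enzymes that break down nucleic acids, the exonucleases Pld3 (100%) and Pld4 (98.6%) and the ribonuclease gene Rnaset2b (100%) were near universal, and Dnase2a was read in 65.7%. Rnaset2a, a near-identical copy of Rnaset2b, was listed at 0, so reads of this pair cannot be assigned with certainty.

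Accessory surface genes were uneven. Ly86 was read in 98.6% of cells and its partner Cd180, a receptor relative without a signalling domain, in 73.4%, whereas Ly96 stood at 17.5%, Cd36 at 12.6% and Lbp, a serum protein, at 4.2%. Of 27 pairs of members with Ly96, Ticam2 or Tirap, 2 had a phi of 0.2 or more, both with Ly96, beside the 2.8% of all pairs. Tlr4 and Ly96 were together in 12 cells against 6.47 (phi 0.07 on plate 1 and 0.60 on plate 2), and Tlr7 and Ly96 in 23 against 16.96 (0.22 and 0.29). These pairs were singled out after their values were seen.

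Signalling genes downstream were read in part of the cells. Of 17 kinases and ubiquitin ligases, 2 reached 50% of cells, as did 9.41% of all gene rows. They were Ube2n at 78.3% and Peli1 at 54.5%, with Tbk1 at 46.9%, Irak1 at 34.3%, Irak4 at 32.9% and Traf6 at 17.5%. Of 9 transcription factors, Irf8 (89.5%) and Irf5 (55.9%) also reached 50% of cells, while Rela stood at 40.6%, Nfkb1 at 26.6% and Irf7 at 2.1%. Negative regulators had a median share of 32.2%, led by Lrrc33 at 79.02%, Nfkbia at 43.4% and Cyld at 39.2%. Irak3, the inhibitory Irak, was read in 5.59%.

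Classical target genes were uneven, with 7 of 18 read in no cell. Over all gene rows, 12801 of 23337 had a read in any cell, so unread rows were common outside the list too. In the list, 1 of 18 reached 50% of cells, beside 9.41% of all gene rows: Ccl3 at 54.5%, followed by the inhibitor Nfkbia at 43.4% and the adhesion gene Icam1 at 30.8%. Zfp36 (29.4%), Ccl2 (26.6%), Il1a (24.5%), Ccl4 (19.6%) and Tnfaip3 (16.8%) came next. Tnf was read in 3 cells and Il1b in 1, and Il6, Il12b, Ptgs2, Nos2, Cxcl2, Cxcl10 and Ifnb1 in 0 of 143 (upper limit 2.55% each). Of the other sensors, Pycard, the inflammasome adaptor, was read in 97.9% of cells and Clec7a, itself a gate protein, in 83.2%. Tmem173 (STING) was read in 35.7% and Nlrp3 in 14.7%. Receptors of the interleukin family that also use Myd88 were rare, with Il1rap at 11.2% and Il1r1 at 3.50%.

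Genes whose level ran most like that of a member were ranked by the mean of the within-plate Spearman rho over 5569 other genes read in at least 20% of cells. The leading ones are the extremes of many weak values over cells that differ in depth, and carry no test. For Cd14 they were Lpl, lipoprotein lipase (0.40; 0.29 on plate 1 and 0.52 on plate 2), Ccdc115 (0.37), the chemokine gene Ccl2 (0.37; 0.29 and 0.45), Sepw1 (0.34) and Scyl3 (0.33), beside a 95th percentile of 0.17 over all genes. The highest member in that ranking was Tlr13 at 0.14, and Tlr4 was at -0.05.

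For Tlr2 the leading genes were Cggbp1, Atp5b, Eif1, Rcan1 and Vta1, from 0.33 to 0.29, with Tlr13 at 0.24 (0.22 and 0.27) and Tlr1 at -0.16. For Tlr7 they were 1700123O20Rik, Ypel5, Slc2a8, Cox7a2l and Zbed3, from 0.35 to 0.29, and for Tlr13 Anp32b, Adprhl2, Colec12, 2310001A20Rik and Prosc, from 0.37 to 0.32. No gene was shared by 2 of these 4 sets of 5, which sets this small out of 5569 genes would mostly give in any case. The 95th percentiles were 0.16 for Tlr2, 0.16 for Tlr7 and 0.18 for Tlr13.

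Cd14 is also known as a gene induced by handling of myeloid cells, so its level was set beside immediate early genes. Of 15 such genes, Klf6 was read in 55.2% of cells and Fos in 2.80%, and a cell held a median of 2 on each plate. The rho of Cd14 with the number read was 0.20 on plate 1 and 0.13 on plate 2, and that with their summed CPM 0.11 and 0.27; the part of handling in the level of Cd14 was not tested. Its rho with Lgals3 was 0.22 and 0.16, with Clec7a 0.09 and 0.14, and with P2ry12 -0.18 and -0.11. Averaged over the plates these were 0.19, 0.12 and -0.14, where all genes compared had 5th and 95th percentiles of -0.16 and 0.17. The 9 microglial markers, P2ry12 among them, had a median of -0.11, with Tyrobp at -0.18, Csf1r at -0.03 and Fcrls at 0.03.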

How the data were processed

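Counts per gene and cell were deposited by the authors as 1 table of whole numbers; the tools behind them include HTSeq, Picard, STAR 2.5.3a and Trim Galore 0.4.3, with mm10 as the build, per the submitters' processing notes, and the annotation and strand setting are not given in the sources used here. Column sums equalled the labelled totals in 143 of 143 cells, and 92 spike-in rows were left out of totals. From the counts, CPM (per 1000000 gene counts), pooled CPM (summed counts over summed totals), shares of cells with exact 95% intervals, phi and Spearman rho were computed with Python 3.11.15, numpy 2.4.6, pandas 2.3.3 and scipy 1.17.1. Exon lengths (merged exons) and positions are from GENCODE M21 on GRCm38, the build of mm10. A cell counted as positive at 1 count. No cell was removed, no test between cells was run and no p-value is given. Phi and rho were tried on simulated counts with planted links to a reference pattern. Detection there did not depend on a cell's depth or number of genes, so that shared effect was not covered. The members and lists were chosen with earlier results of these data known. Named genes are the members, the other receptors, the leading genes of each list and the 5 genes most like each member read in at least 50% of cells; further genes were named after their values were seen. Alternatives were a limit of 10 CPM, counts thinned to 259613 per cell, each plate alone, spike-in scaling, Rn45s left out, means of cells, the longest transcript and leaving out the 5 highest cells.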

Additional observations from a re-analysis of the deposited data

How the results depend on the processing

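The summary results moved little under the alternatives tried. The shares of cells with any receptor of a place stayed within the 95% interval over all cells. The mean number of receptors and the ratio of endosomal to surface level stayed within 1.5-fold. Any surface receptor was read in 84.2 to 91.7% of cells and any endosomal receptor in 83.9 to 89.5%, over the limit of 10 CPM, thinned counts and each plate alone. The mean number of receptors per cell was 2.68 to 2.96, and the ratio of endosomal to surface level stayed below 1, from 0.543 on plate 2 to 0.905 on plate 1. The median phi of Cd14 with the other members was -0.01 to 0.07. Of single members, the share of Tlr7 at 10 CPM or more was 57.3% and those of Tlr2 (70.8%) and Tlr13 (39.6%) on plate 2 lay outside the interval over all cells. No paired analysis was possible because the series holds 1 group. Of the phi values of Cd14 with the 9 other members, 2 moved on plate 1, 4 on plate 2 and 1 as the mean over cells with fewer and more genes. A move was a change above the counting spread of phi over all 143 cells. Each plate holds fewer cells, so its own spread is wider and such moves are easier to reach. After thinning, Tlr7 was read in 63.6% of cells against 67.8% before.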
